A study of Xenopus tropicalis with 9 samples.

Results

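The response of whole *Xenopus tropicalis* embryos to Fgf4 overexpression was measured by RNA sequencing at stage 14, a neural plate stage. The comparison takes 6 of the 9 libraries of the series, 3 from embryos that received a plasmid expressing *fgf4* and 3 from embryos that received water alone. All embryos were of the Nigerian strain and were kept at 23 degrees. The Fgf4 group was injected with 5 pg of Cska-Fgf4, in which the Cska promoter, a cytoskeletal actin promoter active in most embryonic cells, drives *fgf4*. Plasmid is inherited unevenly by the dividing cells of an embryo, so an embryo can hold cells with and without it. The other 3 libraries, from embryos injected with mRNAs for a TALEN pair against *cic*, enter the model only to share its estimate of the spread and serve once as a comparison. Of 23633 genes in the table, 13437 had a mean abundance of at least 1.5 TPM (transcript abundance corrected for length and for library size) in control or Fgf4 libraries and were tested.

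Fgf ligands bind receptor tyrosine kinases and signal through Ras, Raf and Mek to the kinase Erk, which enters the nucleus and changes transcription. In the frog embryo this pathway maintains mesoderm, acts with Wnts and retinoic acid to pattern the trunk and tail, and antagonises the formation of anterior structures such as forebrain and eye. Erk activity also induces its own inhibitors, among them the Sprouty proteins and the phosphatase Dusp6, so the transcripts of these genes are widely used as a readout of the pathway. A *fos*, *jun* and *egr1* response within minutes of Erk activation is the classic immediate early response.

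Transcripts of the injected gene *fgf4* stood at 3.23, 4.07 and 0.953 TPM in control replicates 1, 2 and 3. In Fgf4 replicates 1, 2 and 3 they stood at 1692, 168 and 95.4 TPM. Every Fgf4 library was thus far above every control library, and Fgf4 replicate 1 held by far the most. The values are gene-level TPM that had been rescaled between libraries, with sums from 921975 to 1162165 over the 6 libraries. They hold no counts, so precision rests on the spread between replicate libraries. That spread was estimated over all 9 libraries, with a prior drawn from other genes. Libraries that share a replicate number deviated together, and the number was fitted as a block.

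A gene was called when its unadjusted p did not exceed 0.01 and its log2 fold change was at or beyond 0.81 in either direction. These limits follow the study, with its effect size read as a linear fold. On this basis 188 genes rose and 156 fell. If that effect size is instead 2 raised to a natural-log estimate, the fold limit becomes 2.24, and 120 genes were up-regulated and 107 down-regulated. For most genes the study lists as lowered by both treatments, its effect size is nearer to 1 than the ratio of group means. The linear limit used here may therefore be looser than that of the study. The 188 and 156 are 1.40% and 1.16% of the genes tested, and the shares of listed genes given below are to be read against them. When libraries were rescaled by median-of-ratios factors the numbers were 177 and 249, so the share of calls that were up went from 54.7% to 41.5%. No gene reached a Benjamini-Hochberg adjusted p of 0.05 in limma (lowest 0.0711, for *fos*), against 1784 genes with an unadjusted p under 0.05. The counts rest heavily on single libraries. Without Fgf4 replicate 3, 238 genes were called up and 818 down, and 390 reached an adjusted p of 0.05. Leaving out control replicate 1 gave 59 and 27, and leaving out control replicate 2 gave 100 and 65. Down-regulated genes numbered 40 without Fgf4 replicate 1 and 47 without Fgf4 replicate 2. There were 9 leave-out fits, each without 1 of the 6 libraries or without 1 replicate number, and 33 of the 188 up-regulated and 9 of the 156 down-regulated genes were called in all of them.

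Genes were also grouped into 36 lists by function or tissue. Their members were chosen with earlier results of these data known, so shares and medians of lists are descriptions and not tests. All genes tested had a median log2 fold change of 0.01. The highest list medians were those of the posterior Hox genes at 0.91, Nodal pathway and gastrula mesendoderm genes at 0.83 and Erk feedback genes at 0.56. The lowest were those of forebrain and eye field genes at -1.33, heart field genes at -0.84, ionocyte genes at -0.78 and multiciliated cell genes at -0.72. Without control replicate 1 the medians of posterior Hox, forebrain and multiciliated cell genes were 0.57, -0.80 and -0.41. Without Fgf4 replicate 1 those of posterior Hox, heart field and multiciliated cell genes were 0.51, -0.53 and -0.47, and without Fgf4 replicate 2 that of the Nodal and gastrula genes was 0.31. Ribosomal protein and oxidative phosphorylation genes had medians of -0.04 and 0.01 with 0 calls among 153 tested. In RNA from whole embryos, fewer cells of a type and less RNA per cell cannot be told apart.

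**Figure D1:**
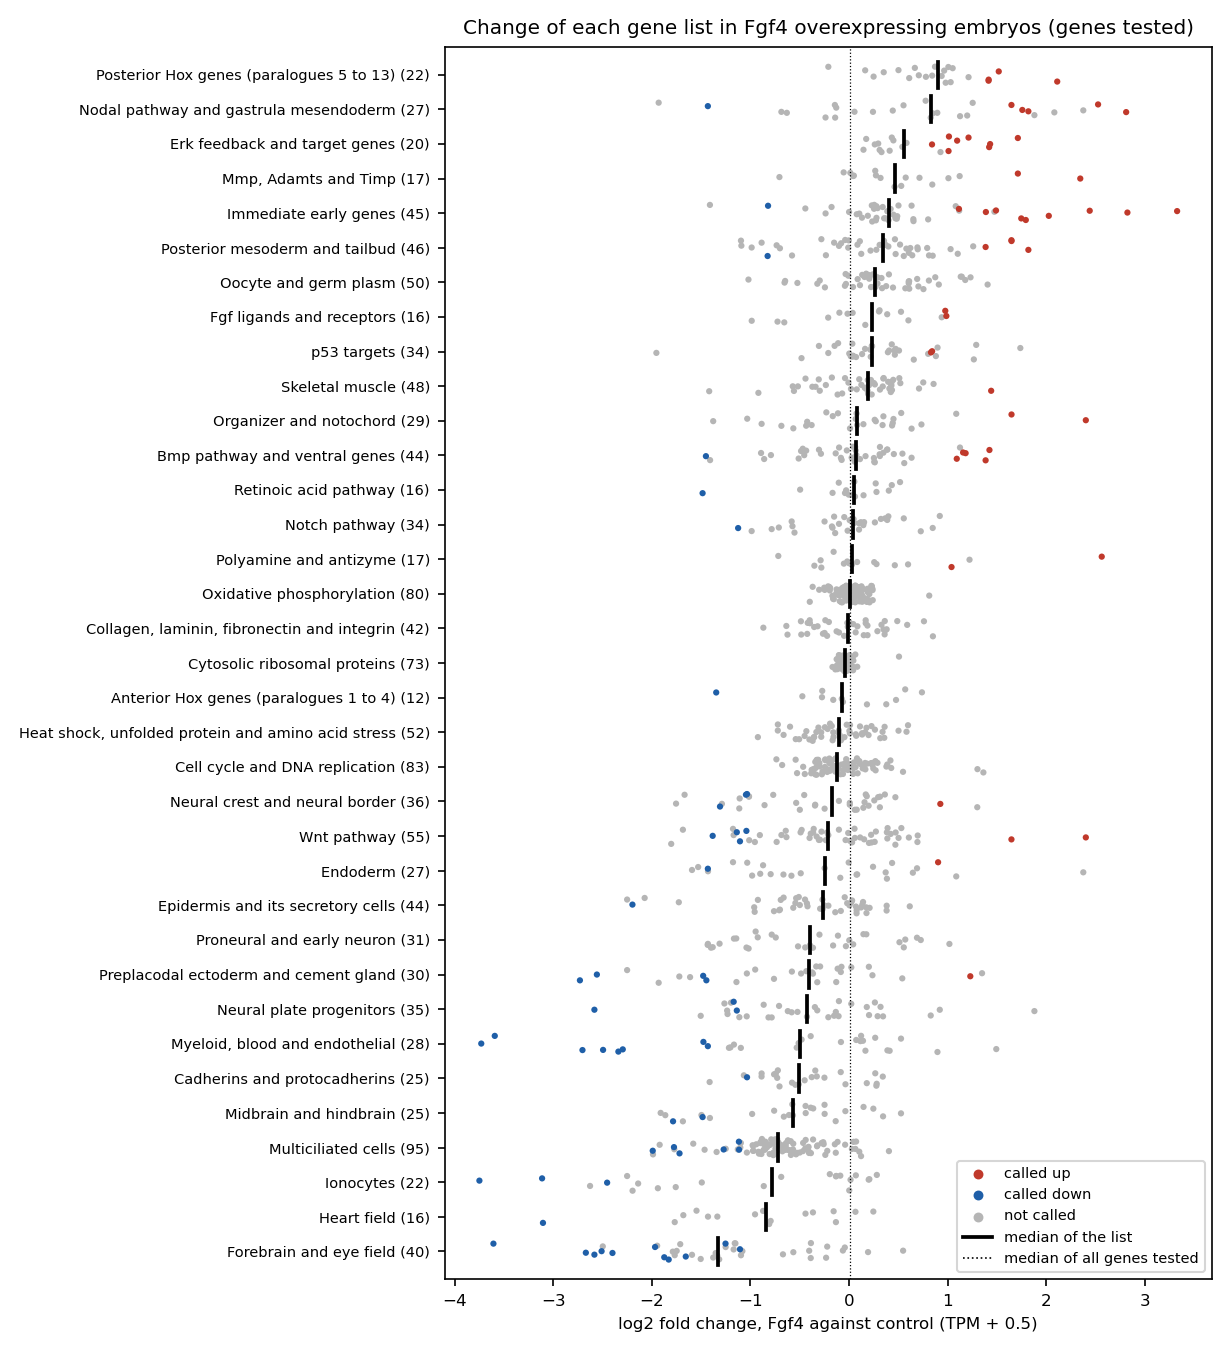
Log2 fold change (TPM + 0.5, x axis) of each tested member of 35 gene lists, sorted by list median, with the number of genes tested in parentheses. Red and blue points were called up and down, grey points were not called, and black bars are list medians, from 0.91 in posterior Hox genes to -1.33 in forebrain and eye field genes.

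Of 20 tested Erk feedback and target genes, 8 rose and 0 fell. They were the Sprouty genes *spry1*, *spry2* and *spry4*, which block Fgf receptor signalling, the Erk phosphatase gene *dusp6*, the membrane antagonist gene *il17rd*, *errfi1*, which encodes an inhibitor of the EGF receptor, the Ras-like GTPase gene *rasl11b* and the secreted protease gene *adamts1*. The level of *dusp6* was 78.7, 77.0 and 58.1 TPM in control replicates 1, 2 and 3 and 308, 143 and 100 TPM in the Fgf4 replicates. For *spry4* the control values were 29.5, 40.9 and 26.7 TPM and the Fgf4 values 183, 77.8 and 45.7 TPM. Both genes were higher in each Fgf4 library than in any control library, and Fgf4 replicate 1 was highest. The log2 fold change of *dusp6* was 1.21 ± 0.27 (SE, limma, Benjamini-Hochberg adjusted p = 0.287), and that of *spry4* was 1.43 ± 0.35 (SE, adjusted p = 0.300). In *rasl11b* replicate 1 was the lowest of the Fgf4 libraries. It went from 18.4, 14.2 and 24.3 TPM to 37.2, 59.2 and 58.6 TPM, a log2 fold change of 1.42 ± 0.25 (SE, adjusted p = 0.277), and it was called in all 9 leave-out fits.

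Across the Erk list, 17 of the 20 genes were higher in all 3 replicate pairs, which is 85% against 20.4% of all genes tested. The 17 include *rasl11b*, which the study picked as a candidate target from genes raised in these same libraries. Its rise is therefore no separate support. The Ets factor genes *etv1* and *etv4*, often used as Fgf targets, were among the genes of this list that were not called. *etv1* stood at 210, 262 and 99.2 TPM in control and 408, 277 and 114 TPM in Fgf4 libraries, so the groups overlapped, at 0.41 ± 0.21 on the log2 scale (SE, limma adjusted p = 0.445). *etv4* stood at 9.91 ± 1.39 TPM and 12.0 ± 2.00 TPM (SD, n = 3 each), 0.26 ± 0.16 on the log2 scale (SE, limma adjusted p = 0.527). The number of Erk feedback genes called up was 2 without the replicate block. It was 1 without control replicate 1, 3 without control replicate 2, 4 without Fgf4 replicate 1 and 5 without Fgf4 replicate 2, and 4 with the fold limit of 2.24.

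Immediate early genes included the gene with the smallest adjusted p, *fos*. Among 45 tested, 9 rose (*fos*, *sgk1*, *ier3*, *apold1*, *fosl1*, *egr1*, *atf3*, *nr4a2* and *junb*) and *nfil3*, a bZIP repressor gene, fell. *fos*, which encodes a subunit of the transcription factor AP-1, was at 2.30, 3.19 and 5.32 TPM in control libraries and at 34.1, 49.3 and 34.9 TPM in Fgf4 libraries. The 3 Fgf4 libraries lay close together even though their *fgf4* levels did not. The log2 fold change of *fos* was 3.33 ± 0.28 (SE, limma adjusted p = 0.0711), and the pairs gave 3.63, 3.75 and 2.60. *egr1*, a zinc finger transcription factor gene, went from 1.99, 3.11 and 3.77 TPM to 66.0, 16.0 and 11.9 TPM. Here Fgf4 replicate 1 stood apart from the others, with pair differences of 4.74, 2.19 and 1.54 and a fitted log2 fold change of 2.82 ± 0.53 (SE, limma adjusted p = 0.287).

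The kinase gene *sgk1* went from 56.9, 127 and 62.6 TPM to 275, 380 and 297 TPM. Its log2 fold change was 2.03 ± 0.28 (SE, limma adjusted p = 0.264), the groups did not overlap, and the pairs gave 2.26, 1.58 and 2.24. *ier3* went from 58.6 ± 31.3 to 200 ± 93.1 TPM (SD, n = 3 each), a log2 fold change of 1.79 (limma adjusted p = 0.269). The AP-1 and bZIP genes *junb*, *atf3* and *jun* had their largest difference in pair 2. For *junb* the pairs gave 1.13, 2.14 and 1.2, and for *atf3* 0.72, 1.78 and 0.85. *jun* was higher in all 3 pairs, by 0.94, 2.24 and 1.25, and was not called, and its control libraries ran from 4.13 to 33.6 TPM. *fos*, *egr1*, *ier3*, *sgk1* and *apold1* were called in all 9 leave-out fits. Without replicate 2 in both groups the number of immediate early genes called up was 5. *nfil3* was called in 2 of the 9.

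**Figure D2:**
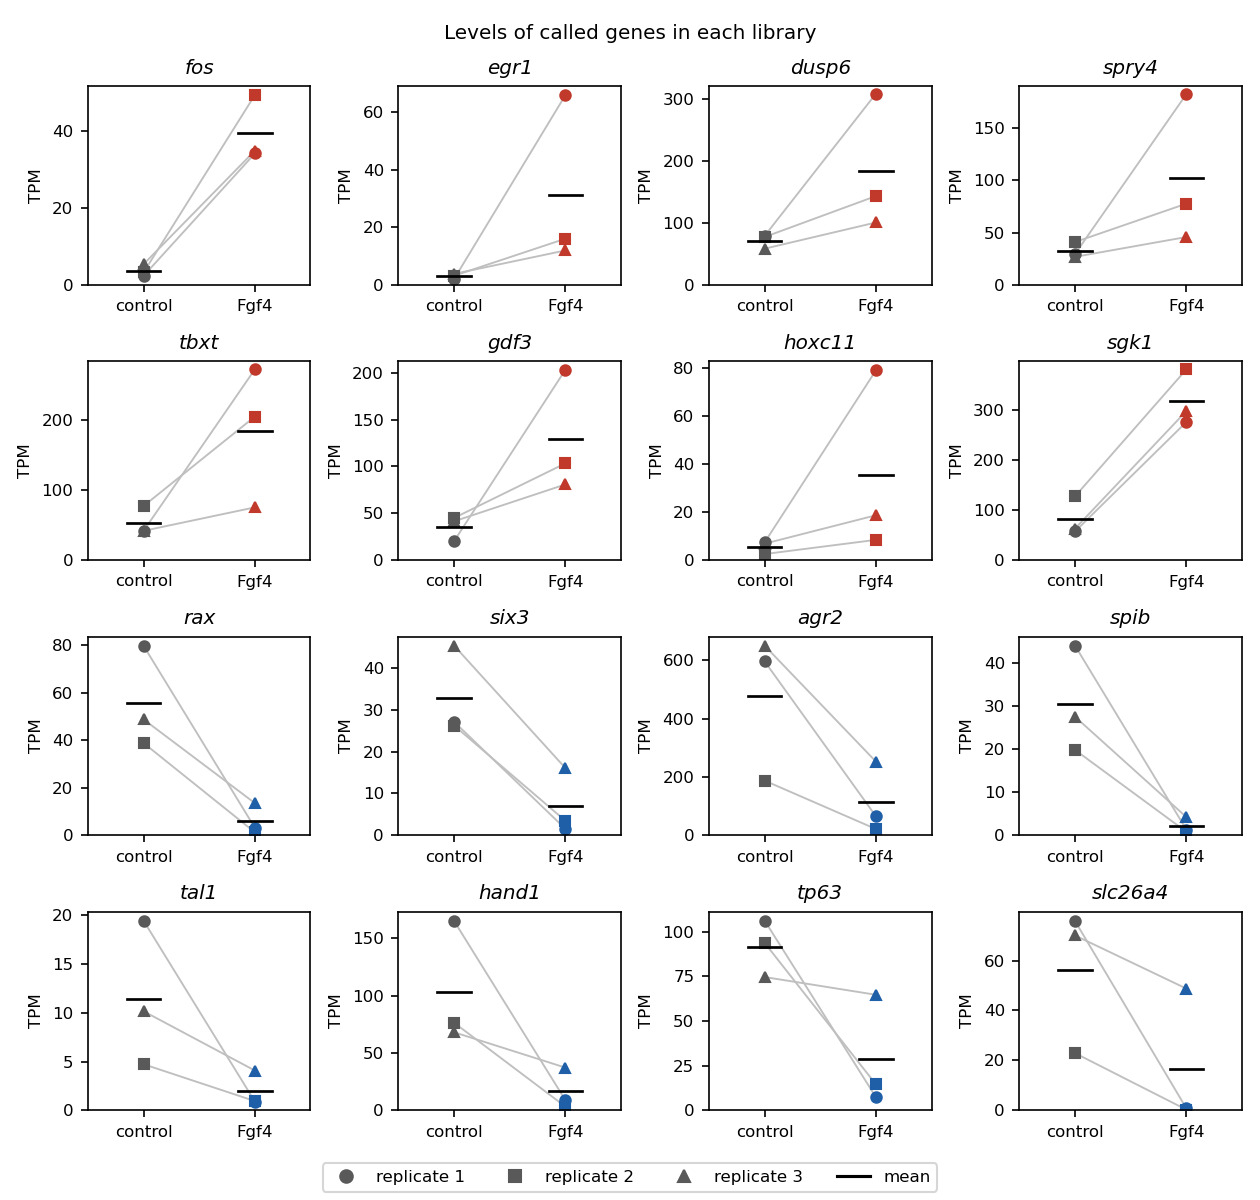
Abundance (TPM, y axis) of 16 called genes in control and Fgf4 libraries, with a line joining the libraries of each replicate number and a black bar at each mean. In *fos* and *sgk1* the 3 Fgf4 libraries lie close together, in *egr1*, *dusp6*, *spry4* and *hoxc11* Fgf4 replicate 1 is highest, and in *tp63* and *slc26a4* Fgf4 replicate 3 stays near its control.

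Among the other Fgf ligand and receptor genes 2 of 16 tested rose and 0 fell. *fgf16* went from 10.3 ± 2.46 to 21.9 ± 10.3 TPM and *fgf20* from 14.8 ± 5.17 to 29.6 ± 10.3 TPM (SD, n = 3 each), with log2 fold changes of 0.98 and 0.99. Neither was called without the replicate block, and each was called in 2 of the 9 leave-out fits.

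Of 46 tested posterior mesoderm and tailbud genes 4 rose, namely *tbxt* (Brachyury, the T-box factor of posterior mesoderm and notochord), the homeobox gene *evx1*, the posterior Wnt ligand gene *wnt8a* and *gdf3*, a TGF-beta family ligand gene. *tbxt* went from 41.7, 77.2 and 41.6 TPM to 273, 205 and 75.2 TPM. Fgf4 replicate 3 lay just below control replicate 2, so the groups overlapped, while each pair rose, by 2.69, 1.40 and 0.85. The fitted log2 fold change of *tbxt* was 1.65 ± 0.48 (SE, limma adjusted p = 0.302), and it was called in 2 of the 9 leave-out fits. *wnt8a* went from 41.4, 74.6 and 87.8 TPM to 161, 288 and 183 TPM. Its groups did not overlap, its log2 fold change was 1.65 ± 0.28 (SE, limma adjusted p = 0.269), and it was called in all 9 leave-out fits. *gdf3* went from 20.1, 44.8 and 41.3 TPM to 203, 103 and 80.6 TPM, with pair differences of 3.31, 1.19 and 0.96. *ripply2.2*, which encodes a corepressor of T-box factors at somite boundaries, fell from 92.9 ± 24.4 to 52.3 ± 13.2 TPM (SD, n = 3 each), a log2 fold change of -0.83. *cdx4*, a caudal homeobox gene upstream of posterior Hox genes, was not called at 0.64 (limma adjusted p = 0.328). The 4 calls up in this list became 1 without control replicate 1, 2 without Fgf4 replicate 1 and 10 without Fgf4 replicate 3.

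The fold changes of Hox genes went up with paralogue number, which follows the order in which these genes are expressed from head to tail. The median log2 fold change was -0.07 in 12 genes of paralogue groups 1 to 4, 0.61 in 11 genes of groups 5 to 8, 0.94 in 5 genes of groups 9 and 10 and 1.31 in 6 genes of groups 11 to 13. All 11 genes from group 9 onwards were higher in each of the 3 pairs, and 2 of the 11 in groups 5 to 8 were. The genes called up were *hoxc10*, *hoxc11*, *hoxc13* and *hoxd13*. *hoxc11* went from 7.28, 2.43 and 6.75 TPM to 78.8, 8.34 and 18.6 TPM, with no overlap between the groups. Its log2 fold change was 2.11 ± 0.38 (SE, limma adjusted p = 0.277). At the other end of the series *hoxb1*, a marker of the hindbrain, fell from 35, 61.4 and 22.2 TPM to 9.91, 22.4 and 12 TPM, -1.35 ± 0.24 on the log2 scale (SE, limma adjusted p = 0.277). It was the only 1 of the 12 genes of groups 1 to 4 that was called. *hoxd1*, of the same group as *hoxb1*, stood at means of 146 TPM in control and 140 TPM in Fgf4 libraries, a log2 fold change of -0.07.

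In the posterior Hox genes as a list, the median difference was 1.76 in pair 1, 0.09 in pair 2 and 0.68 in pair 3. In 18 of 22 genes the 3 differences stood in the same order as those of *fgf4*, with pair 1 highest and pair 2 lowest. That is 81.8%, against 18.7% of all genes tested. The order was not particular to posterior Hox genes. It was found in 44 of 73 ribosomal protein genes (60.3%), a list with 0 calls. It was also found in 23 of 48 muscle genes (47.9%) and 6 of 12 anterior Hox genes (50.0%), but in 20.0% of Erk feedback genes. Hox genes lie in clusters and are not independent of each other. The number called up was 0 without the replicate block, 1 without control replicate 1, 1 without Fgf4 replicate 1, 15 without Fgf4 replicate 2 and 2 without Fgf4 replicate 3. *hoxc11* was called in all 9 leave-out fits, as was *hoxb1*.

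**Figure D3:**
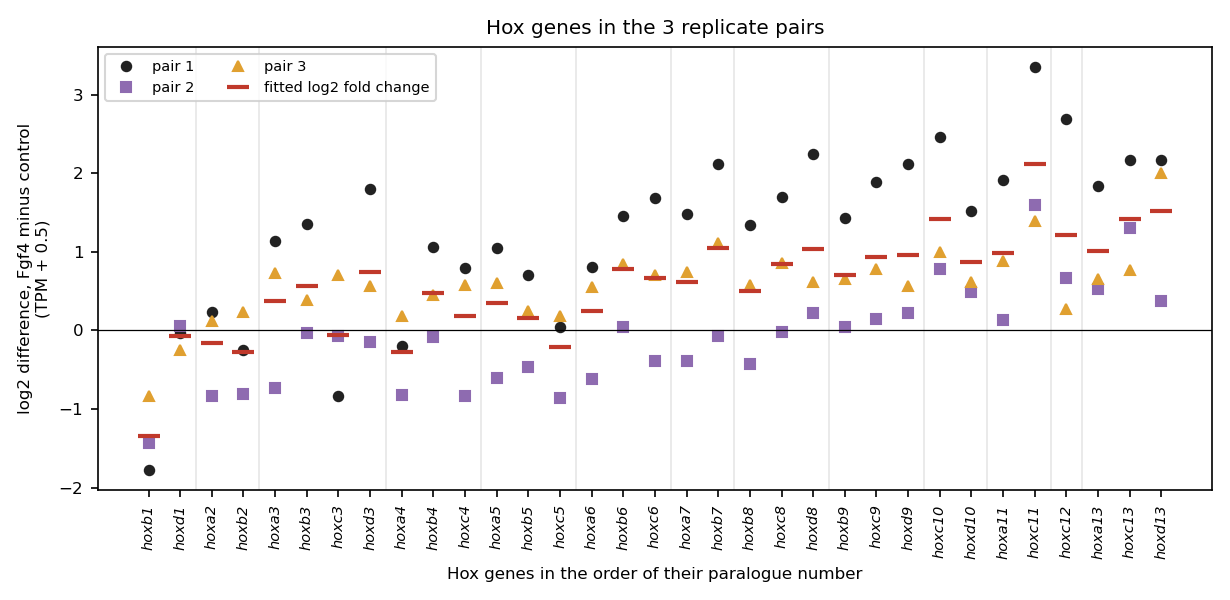
Log2 difference between Fgf4 and control (TPM + 0.5, y axis) for 33 Hox genes ordered by paralogue number, in each of the 3 replicate pairs, with the fitted value as a red bar. *hoxb1* is below 0 in all pairs, the genes from group 9 onwards are above 0 in all pairs, and pair 2 lies below 0 in most genes of the middle groups.

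Forebrain and eye field genes had the lowest median of the 36 lists. Of 40 tested 11 fell and 0 rose, and 29 were lower in all 3 pairs, 72.5% against 19.3% of all genes tested. Those that fell included the eye field regulators *rax*, *six3*, *pax6* and *lhx2*, the forebrain zinc finger genes *fezf1* and *fezf2*, the homeobox genes *otx1* and *barhl1*, *dmrta1* and the Wnt receptor gene *fzd8*. *rax* went from 79.8, 38.8 and 48.8 TPM to 3.12, 1.2 and 13.5 TPM. *six3* went from 27.1, 26.2 and 45.4 TPM to 1.51, 3.44 and 16.1 TPM. In both genes the groups did not overlap, and Fgf4 replicate 3 kept the most transcript. The log2 fold change of *rax* was -3.61 ± 0.98 (SE, limma adjusted p = 0.300), and that of *six3* was -2.67 ± 0.61 (SE, limma adjusted p = 0.288).

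*pax6*, which is also expressed in the spinal cord, went from 99.1, 71.0 and 76.3 TPM to 9.35, 6.99 and 34.0 TPM, by -2.58 ± 0.52 (SE, limma adjusted p = 0.287). *otx2*, an anterior homeobox gene, was lower in every Fgf4 library (15.7, 35.4 and 42.3 TPM) than in any control library (84.5, 65.8 and 76.7 TPM). At -1.38 with an unadjusted p of 0.0108 it narrowly missed the limit (limma adjusted p = 0.303). The 11 calls became 7 without the replicate block, 3 without control replicate 1, 7 without control replicate 3, 1 without Fgf4 replicate 1, 3 without Fgf4 replicate 2 and 18 without Fgf4 replicate 3. The median of the list stayed between -0.78 and -1.71 in these and the other leave-out fits.

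At the front edge of the head, the cement gland, a mucus-secreting organ that attaches the tadpole, and the preplacodal ectoderm, the source of sense organs, form. Of 30 tested genes 4 fell, namely the secreted protein genes *agr2* and *ag1* of the cement gland, the homeobox gene *pitx1* and the forkhead gene *foxi4.1*. *agr2* went from 596, 187 and 650 TPM to 64.9, 21.0 and 252 TPM. Both libraries of replicate 2 were low and the groups overlapped, while within pairs the differences were -3.19, -3.12 and -1.36. The fitted log2 fold change of *agr2* was -2.56 ± 0.57 (SE, limma adjusted p = 0.287). *pitx1* fell from 23.5 ± 8.08 to 4.13 ± 4.38 TPM (SD, n = 3 each), 2.73 lower in log2 units (limma adjusted p = 0.300), without overlap. The 1 listed gene that rose, *cldn6.1*, encodes a claudin of epithelial tight junctions and not a regulator of placodes. It went from 179, 601 and 691 TPM to 457, 1550 and 1360 TPM, with overlap. The 4 calls down became 2 without the replicate block, 1 without control replicate 1, 2 without Fgf4 replicate 1 and 0 without replicate 1 in both groups. They became 8 without Fgf4 replicate 3, 6 without control replicate 2 and 9 with median-of-ratios scaling.

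Behind the forebrain, of 25 tested midbrain and hindbrain genes, *lmx1b.1*, a homeobox gene of the midbrain-hindbrain boundary, and *cyp26c1*, whose enzyme degrades retinoic acid, fell, by 1.78 and 1.49 on the log2 scale. The list median was -0.57, and 18 of the 25 genes, 72.0%, were lower in all 3 pairs. Neural plate progenitor genes had a median of -0.43, with 3 of 35 called down, *pax6*, *nkain1* and *draxin*. None of 31 proneural and early neuron genes was called, and their median was -0.40. The 3 most abundant of them were not lower on average, but none is on this list alone. *dll1* is also on the posterior mesoderm and Notch lists, *hes6.1* on the Notch list and *cdknx* on the p53 target list. *cdknx*, a cyclin-dependent kinase inhibitor gene, stood at 497 ± 147 TPM in control and 530 ± 240 TPM in Fgf4 libraries (SD, n = 3 each), with pair differences of 0.59, -0.53 and -0.05. *hes6.1* stood at 356 ± 51.0 TPM in control and 645 ± 357 TPM in Fgf4 libraries, and *dll1*, the Notch ligand gene, at 102 ± 13.5 and 152 ± 33.5 TPM (SD, n = 3 each), neither of them called. The 2 midbrain and hindbrain calls became 0 without any 1 of the other libraries and 8 without Fgf4 replicate 3. The 3 neural plate calls became 11 without Fgf4 replicate 3, 6 with median-of-ratios scaling and 0 without replicate 1 in both groups. They became 1 without the replicate block, control replicate 1, control replicate 2, Fgf4 replicate 1 or Fgf4 replicate 2. Of the proneural and early neuron genes 9 were called down without Fgf4 replicate 3 and 3 without control replicate 3.

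Of 36 tested genes on the neural crest and neural border list, *ets1*, *twist1* and *cdh11* fell and *greb1* rose, and the list median was -0.18. *ets1*, an Ets factor gene of cardiac neural crest and blood vessels, went from 82.9, 54.6 and 20.2 TPM to 20.0, 24.5 and 11.7 TPM. It was lower by 2.03, 1.14 and 0.76 within pairs, although the groups overlapped, and its log2 fold change was -1.31 ± 0.25 (SE, limma adjusted p = 0.287). *twist1*, a bHLH factor gene of migrating crest, went from 120 ± 25.9 to 61.9 ± 33.4 TPM (SD, n = 3 each), a log2 fold change of -1.05 (limma adjusted p = 0.300). *ets1* was called in all 9 leave-out fits and *twist1* in 2. The 3 calls down became 0 without the replicate block and 9 without Fgf4 replicate 3, and they became 1 without control replicate 1, control replicate 2, Fgf4 replicate 1 or Fgf4 replicate 2. The list median was 0.04 without Fgf4 replicate 1.

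Of 28 tested myeloid, blood and endothelial genes 8 fell and 0 rose. Primitive myeloid cells, which arise at the anterior ventral side of the embryo, are marked by the Ets factor gene *spib*, by *cebpa* and by the myeloperoxidase gene *mpo*. *spib* went from 44.0, 19.8 and 27.5 TPM to 1.29, 0.785 and 4.2 TPM. *cebpa* went from 41.4, 15.4 and 13.8 TPM to 2.24, 5.33 and 2.85 TPM. *mpo* went from 85.3, 9.49 and 38.1 TPM to 3.91, 0.216 and 5.46 TPM. Each Fgf4 library was below each control library for these genes. The log2 fold changes were -3.73 ± 0.55 for *spib* (SE, limma adjusted p = 0.264), -2.49 ± 0.42 for *cebpa* (SE, limma adjusted p = 0.269) and -3.59 ± 0.79 for *mpo* (SE, limma adjusted p = 0.287).

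*tal1*, the bHLH factor gene needed for blood, went from 19.4, 4.72 and 10.1 TPM to 0.904, 0.954 and 4.07 TPM, and *gfi1* and *gfi1b*, zinc finger repressor genes of blood progenitors, fell by 2.70 and 2.34 on the log2 scale. *sox7*, a gene of endothelium and endoderm, and the cytoglobin gene *cygb* fell by 1.43 and 1.48. *spib* and *cebpa* were called in all 9 leave-out fits. The 8 calls became 4 without control replicate 1, 5 without Fgf4 replicate 2 and 3 without replicate 1 in both groups. The list had a median of -0.50, which was -0.25 without Fgf4 replicate 1 and -0.05 without replicate 1 in both groups. Its summed level over 55 genes, tested or not, was 1244 to 1284 TPM in control and 1146 to 1566 TPM in Fgf4 libraries.

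Of 16 tested heart field genes, *hand1*, a bHLH factor gene of lateral plate and heart, fell. It went from 165, 76.4 and 68.1 TPM to 8.99, 3.33 and 37.3 TPM, -3.10 ± 0.72 on the log2 scale (SE, limma adjusted p = 0.288). Pair 3 gave -0.86 where pairs 1 and 2 gave -4.12 and -4.33. No other heart field gene was called, and 10 of the 16, 62.5%, were lower in all 3 pairs. *gata6*, a zinc finger gene of heart and gut, stood at 92.4 ± 41.8 and 37.9 ± 27.6 TPM (SD, n = 3 each) and was not called at -1.43 (limma adjusted p = 0.320). *hand1* was called in 3 of the 9 leave-out fits. Without control replicate 1, Fgf4 replicate 1 or Fgf4 replicate 2 no heart field gene was called, and without Fgf4 replicate 3 there were 4. With median-of-ratios scaling there were 3.

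The larval epidermis carries multiciliated cells that drive fluid over the skin, ionocytes that regulate ions, and secretory cells. Of 95 tested multiciliated cell genes, 6 fell and 0 rose, and 57, 60.0%, were lower in all 3 pairs. Those that fell included *rsph1*, *ccdc40* and *drc1*, which encode parts of the ciliary axoneme, and *cdc20b* and *ccdc67*, which act in centriole amplification. The multiciliated cell markers *foxj1* and *mcidas* were not called and differed from each other. *foxj1* went from 29.6, 20.3 and 25.2 TPM to 16.4, 32.3 and 22.3 TPM, lower in pairs 1 and 3 and higher in pair 2. Its fitted log2 fold change was -0.12 (limma adjusted p = 0.903). *mcidas* went from 25.6, 36.7 and 52.0 TPM to 1.31, 11.7 and 41.9 TPM, by -1.92 on the log2 scale (limma adjusted p = 0.312). *rsph1* went from 27.4, 15.5 and 36.2 TPM to 7.17, 7.36 and 26.2 TPM, by -1.12 ± 0.27 (SE, limma adjusted p = 0.288). *ccdc67* went from 6.1, 6.37 and 7.64 TPM to 0.429, 1.19 and 6.08 TPM. The difference was smallest in pair 3 for both. The list median was -1.35, -0.67 and -0.16 in pairs 1, 2 and 3.

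Of 22 tested ionocyte genes 3 fell, the transcription factor gene *ubp1*, the proton pump subunit gene *atp6v1c2* and *slc26a4*, the gene of the anion exchanger pendrin. *slc26a4* went from 75.7, 22.9 and 70.0 TPM to 0.813, 0.301 and 48.8 TPM. In Fgf4 replicates 1 and 2 it had nearly vanished, and in replicate 3 it kept most of its level, so the groups overlapped. Its log2 fold change was -3.75 ± 1.03 (SE, limma adjusted p = 0.300). *tp63*, the master gene of basal epidermis, showed the same split, from 106, 93.7 and 74.6 TPM to 7.45, 14.6 and 64.6 TPM, and was the 1 gene of 44 tested epidermal genes that was called. Its log2 fold change was -2.20 ± 0.58 (SE, limma adjusted p = 0.300). *krt*, the most abundant gene of that list, stood at 6836 ± 2501 and 5607 ± 3679 TPM (SD, n = 3 each). Without the replicate block 0 multiciliated and 0 ionocyte genes were called. Without Fgf4 replicate 3 there were 36 and 10, without control replicate 1 or Fgf4 replicate 2 there were 0 and 0, and without Fgf4 replicate 1 there were 0 and 1. Without control replicate 2, 2 multiciliated and 0 ionocyte genes were called. With median-of-ratios scaling there were 11 and 5. Epidermal genes called down numbered 9 without Fgf4 replicate 3, 2 without control replicate 3 and 0 without any 1 of the other libraries.

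Of 44 tested Bmp pathway and ventral genes 5 rose and 1 fell. Those that rose were *evx1* and 4 Ventx homeobox genes, *ventx1.2*, *ventx2.1*, *ventx2.2* and *ventx3.2*, which repress dorsal genes and keep cells undifferentiated in the frog gastrula. *ventx3.2* went from 31.2, 72.0 and 68.2 TPM to 135, 169 and 133 TPM, 1.42 ± 0.28 on the log2 scale (SE, limma adjusted p = 0.287). *ventx2.2* went from 154, 344 and 403 TPM to 431, 775 and 749 TPM, by 1.18 ± 0.26 (SE, limma adjusted p = 0.287). In both genes the groups did not overlap. Ventx genes are close copies of each other, and reads may be shared among them. The Bmp receptor gene *bmpr1b* fell from 36.7 ± 10.1 to 14.6 ± 9.1 TPM (SD, n = 3 each). Calls up were 2 without the replicate block, and 3 without control replicate 2 or control replicate 3. They were 1 without control replicate 1, Fgf4 replicate 1 or Fgf4 replicate 2, and 0 without replicate 1 in both groups.

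Genes of the Nodal pathway and of gastrula mesendoderm, most of them normally past their peak by stage 14, were next in list median after the posterior Hox genes. Of 27 tested 5 rose (*wnt8a*, *gdf3*, *sebox*, *mixl1* and *eomes*) and 1, *sox7*, fell. *wnt8a* and *gdf3* are also on the posterior mesoderm list. In all 3 pairs 15 of the 27 (55.6%) were higher and 6 (22.2%) lower, against 20.4% and 19.3% of all genes tested. The gastrula markers *gsc* and *nodal1* were not called and differed in sign, at -0.69 and 0.44 on the log2 scale. The homeobox gene *mixl1*, a regulator of mesendoderm, went from 0.132, 1.25 and 0.824 TPM to 1.66, 33.6 and 6.36 TPM, and the T-box gene *eomes* from 1.49, 8.87 and 3.70 TPM to 7.14, 44.8 and 8.25 TPM. Fgf4 replicate 2 was the highest library in both. *sebox* went from 2.32, 7.69 and 5.14 TPM to 53.5, 30.2 and 14.5 TPM, highest in replicate 1. The log2 fold changes were 2.81 ± 0.77 for *mixl1* (SE, limma adjusted p = 0.300), 1.76 ± 0.51 for *eomes* (SE, limma adjusted p = 0.302) and 2.53 ± 0.54 for *sebox* (SE, limma adjusted p = 0.287).

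The Nodal and gastrula list had a median of 1.19 in pair 2 and 0.49 and 0.33 in pairs 1 and 3. A list of oocyte and germ plasm genes also had its highest median there, at 0.69 in pair 2 against 0.21 and 0.01 in pairs 1 and 3. None of its 50 tested genes was called. Its summed level was 1589 to 1918 TPM in control and 1464 to 2288 TPM in Fgf4 libraries. Of its defining markers, *gdf9* and *bmp15* were at most 2.15 TPM in any library. *zp2*, another of them and a gene of the egg coat, was at 10.6, 21.4 and 4.87 TPM in control and 13.3, 37.4 and 3.96 TPM in Fgf4 libraries, highest in both libraries of replicate 2. The p53 target genes also had their highest median, 0.62, in pair 2. Of 34 tested *tp53inp1* and *plk3* rose, and 0 rose without the replicate block or without control replicate 1, control replicate 2, Fgf4 replicate 1 or Fgf4 replicate 2. The part of these genes in the values of the Nodal and gastrula list was not tested. Without Fgf4 replicate 2, 4 of the list were called up and its median was 0.31. Without control replicate 1 the calls numbered 2, and without control replicate 2 or 3 they numbered 3. The replicate block also mattered, with 3 calls up when it was left out.

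Dorsal, muscle and gut programs held few calls. Among 29 organizer and notochord genes *tbxt* and *frzb* rose. *frzb*, which encodes a secreted Wnt antagonist, went from 7.65, 18.6 and 11.7 TPM to 94.4, 114 and 25.2 TPM, 2.40 ± 0.49 on the log2 scale (SE, limma adjusted p = 0.287), with no overlap. Of 48 tested muscle genes 1, *myl4*, rose, from a mean of 0.800 TPM in control libraries, and no muscle gene was called up without the replicate block, control replicate 1, control replicate 2, Fgf4 replicate 2 or Fgf4 replicate 3. The cardiac actin gene *actc1*, the most abundant muscle transcript, ran from 1110 to 2842 TPM in control and from 772 to 4947 TPM in Fgf4 libraries, and its pairs differed in sign. Of 27 endoderm genes *sox17b.2* rose, with means of 23.1 ± 7.19 in control and 43.2 ± 11.2 TPM in Fgf4 libraries (SD, n = 3 each), and *sox7* fell. Reads of *sox17b.2* may be shared with its near copy *sox17b.1*, which was not called at 0.65 on the log2 scale. *sox17a* went from 150, 261 and 222 TPM to 324, 390 and 290 TPM. At a log2 fold change of 0.69 it was short of the fold limit (limma adjusted p = 0.300). Of the 27 endoderm genes 6 were higher and 12 lower in all 3 pairs. *sox17b.2* was not called without the replicate block, control replicate 1, control replicate 3 or Fgf4 replicate 2. *tbxt* and *frzb* were both uncalled without Fgf4 replicate 1 and without Fgf4 replicate 2.

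Enzyme genes outside the tissue programs gave further calls. Of 17 polyamine genes 2 rose. *azin2*, whose product blocks the antizyme that limits polyamine synthesis, went from 19.6, 32.5 and 53.5 TPM to 199, 119 and 310 TPM, and *sat1*, a polyamine acetyltransferase gene, from 57.7, 87.9 and 73.2 TPM to 115, 197 and 144 TPM. Both lay without overlap, with log2 fold changes of 2.56 ± 0.56 (SE) and 1.04 ± 0.17 (SE). The 2 calls became 1 without Fgf4 replicate 3. Over the 9 leave-out fits *azin2* was called in 6 and *sat1* in all 9.

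Among 17 matrix protease genes of the Mmp, Adamts and Timp families 2 rose, *adamts1* and the collagenase gene *mmp1*. *mmp1* was at 0.331 to 0.528 TPM in control libraries and at 1.56, 9.97 and 4.24 TPM in Fgf4 libraries. Neither protease gene was called without control replicate 1 or control replicate 2. Of 55 Wnt pathway genes 2 rose, *wnt8a* and *frzb*, and 4 fell, *wnt8b*, *draxin* and the Frizzled receptor genes *fzd4* and *fzd8*. The 4 became 0 without the replicate block or control replicate 1, 1 without control replicate 2 or Fgf4 replicate 2, 2 without Fgf4 replicate 1 and 10 without Fgf4 replicate 3. Of 34 Notch pathway genes *hes3* fell. No gene was called among 83 cell cycle, 52 heat shock and stress, or 42 matrix and integrin genes, whose medians were -0.12, -0.10 and -0.01. *fn1*, the fibronectin gene and most abundant of the last, stood at 305 ± 50.5 and 414 ± 222 TPM (SD, n = 3 each). Of 25 genes on the cadherin list, which include *rcan1*, not a cadherin gene, *cdh11* alone was called. The E-cadherin gene *cdh1* stood at 237 ± 72.8 and 157 ± 19.6 TPM (SD, n = 3 each). No gene of the Notch or cadherin list was called without the replicate block, control replicate 1, control replicate 2, Fgf4 replicate 1 or Fgf4 replicate 2. Without Fgf4 replicate 3, 4 genes of the Notch list, 5 of the cadherin list and 3 of the heat shock and stress list were called down.

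Some of the smallest p values belonged to genes in none of the lists. *arrdc2*, an alpha-arrestin gene, went from 4.09, 6.86 and 5.73 TPM to 19.8, 26.3 and 16.3 TPM, 1.81 ± 0.21 on the log2 scale (SE, limma adjusted p = 0.195). *uckl1*, a uridine-cytidine kinase-like gene, went from 19.3, 18.5 and 29.0 TPM to 56.2, 39.1 and 75.2 TPM, by 1.31 ± 0.17 (SE, limma adjusted p = 0.264). *dlx2*, a homeobox gene, went from 11.6 ± 2.97 to 28.4 ± 12 TPM (SD, n = 3 each). These 3 genes were called in all 9 leave-out fits. On the other side *serpina1*, a protease inhibitor gene, and *or51e1*, an olfactory receptor family gene, fell by 0.81 and 1.57 on the log2 scale. In all, 138 of the 188 up-regulated and 107 of the 156 down-regulated genes were in no list, and 60 and 30 of the called genes had no symbol.

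The 3 pairs differed in *fgf4* in a different order by level and by ratio. By level the Fgf4 libraries ran 1692, 168 and 95.4 TPM, in the order 1, 2, 3, while the log2 differences of *fgf4* were 8.82, 5.2 and 6.04, in the order 1, 3, 2, because control replicate 3 had less *fgf4*. Over all genes tested the SD of the log2 differences was 0.88, 0.71 and 0.47 in pairs 1, 2 and 3, the order of the levels. Of the 187 other up-regulated genes 76, or 40.6%, had differences in the order 1, 2, 3, against 17.1% of all genes tested, and 41, or 21.9%, in the order of the *fgf4* ratios, against 18.7%. Of the 156 down-regulated genes 120, or 76.9%, were lowest in pair 1, then pair 2, then pair 3, against 18.7% of all genes tested. Genes lower in all 3 pairs, called or not, had this order in 40.5%. Of genes higher in all 3 pairs, called or not, 25.7% had the order 1, 2, 3. The pairs enter the calls, so the order among called genes is a description. No test of a relation was run over these 3 pairs. Replicate number may also stand for embryo batch, which the study's model includes but the labels do not give. *fgf4* level and batch therefore cannot be told apart.

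The classes did not share 1 order. The medians of Erk feedback genes were 0.97, 0.58 and 0.35 and of forebrain and eye field genes -2.55, -0.94 and -0.61, both in the order of the *fgf4* levels. So were those of multiciliated cells, and of ionocytes at -1.52, -0.85 and -0.11. The medians of posterior Hox genes stood in the order of the ratios instead, as did those of ribosomal protein and muscle genes. The Nodal and gastrula list was highest in pair 2. Immediate early genes gave 0.66, 0.54 and 0.34.

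**Figure D4:**
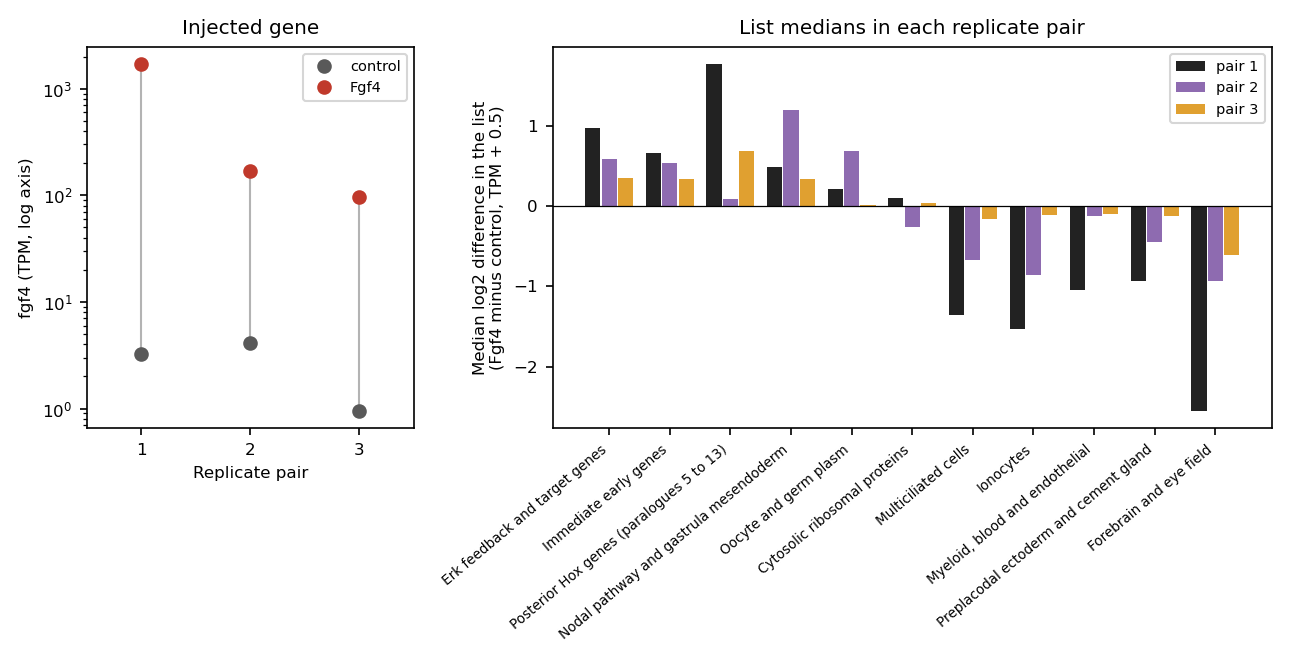
Left, abundance of *fgf4* (TPM, log axis) in the control and Fgf4 library of each replicate pair. Right, median log2 difference (TPM + 0.5) of 11 gene lists in each pair, largest in pair 1 for Erk feedback genes (0.97) and forebrain and eye field genes (-2.55) and in pair 2 for Nodal and gastrula genes (1.19).

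In a direct contrast with the 3 Cic knockdown libraries the log2 differences do not use the controls. The controls still enter the estimate of the spread, and so the p values and calls. Of 13607 genes tested 51 (0.375%) were higher and 239 (1.76%) lower in Fgf4 than in Cic knockdown libraries by the same limits. At an adjusted p of 0.05 limma called 0 genes (lowest 0.331), against 1843 with an unadjusted p under 0.05. Posterior Hox genes supplied 12 of the 51, out of 22 tested, among them *hoxc11*. It was at 78.8, 8.34 and 18.6 TPM in Fgf4 and 13.2, 4.12 and 6.16 TPM in Cic knockdown libraries, a log2 difference of 1.66 ± 0.38 (SE). Of 20 Erk feedback genes *spry2* was higher in Fgf4 libraries, by 0.90 ± 0.24 (SE). *hoxb1*, *ets1* and *sox7* were lower, by 0.92, 0.89 and 1.90. No forebrain and eye field gene was called in this contrast. Oocyte and germ plasm genes supplied 11 of the 239 lower genes, out of 54 tested. Nodal and gastrula genes supplied 5 of 28, p53 targets 4 of 35 and multiciliated cell genes 5 of 95. Of 48 immediate early genes 4 were lower and 1 was higher in Fgf4 than in Cic knockdown libraries. The effect of leaving out libraries on this contrast was not tested.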

How the data were processed

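Gene-level abundance was analysed for 3 control and 3 Fgf4 libraries, with 3 Cic knockdown libraries in the model. The authors trimmed reads with cutadapt, quantified them with Salmon and aggregated them in sleuth, as the paper and the submitters' processing notes name these tools. Versions are not given in the sources used here. The deposited values are a signal in TPM that the authors rescaled between libraries, since library sums differ (871757 to 1162165). They hold no counts, so counting error is unknown.

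Values were taken as log2(TPM + 0.5), which understates changes of low genes. limma 3.58.1 in R 4.3.3 fitted group and replicate number over 9 libraries with a variance prior following mean expression, and all tests were two-sided. Calls required a mean of 1.5 TPM in either group, a change of 1.75-fold or more (the effect size limit of the study, read as a linear fold) and a p, before adjustment, not above 0.01. Adjusted p values are Benjamini-Hochberg over all 13437 genes tested. The fit was tested on simulated data. The labels do not say whether libraries of a group came from separate clutches, so p measures the spread between these samples. Pairing rests on the replicate numbers in the labels and on the batch term of the study's model. Deviations from group means correlated at 0.38 to 0.79 between libraries of the same number and at most 0.34 otherwise.

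Gene names are those of the table. Of them, 19345 match a current and 277 an older RefSeq symbol (UCB_Xtro_10.0, used for names only), and older symbols were used to match list members. The members and the 36 lists, which hold 1550 genes, were chosen with earlier results of these data known, and the lists were written by hand from general knowledge. Named genes are *fgf4*, called list members, the 3 most abundant genes of lists with at most 1 call, in each direction the 10 called genes of smallest p that have a symbol, and genes that the paper discusses. Alternatives were no replicate block, other pseudocounts, TPM filters, scalings, limits, variance prior and sample sets, and each library or replicate number left out in turn. The wound, protein and staining experiments of the study were not analysed here, and some named items are not reported here.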

Additional observations from a re-analysis of the deposited data

How the results depend on the processing

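The number of up-regulated genes went from 188 to 59 without the replicate block, to 120 with a fold limit of 2.24 and to 0 at an adjusted p of at most 0.05. That of down-regulated genes went from 156 to 62 without the block, to 249 with median-of-ratios scaling and to 0 at an adjusted p of at most 0.05. Of the 59 and 62 genes called without the block, 58 and 56 were also called with it. At an adjusted p of 0.05, limma called 1 gene without the block, 1 with median-of-ratios scaling, 1 without control replicate 3, 5 without replicate 3 and 390 without Fgf4 replicate 3. In fits that left out 1 library or 1 replicate number, 59 to 238 genes were up-regulated and 18 to 818 down-regulated. The smallest number down, 18, came without replicate 1, and 572 were down without replicate 3. For the other settings the counts stayed within 1.5 times. Median-of-ratios scaling left the median of all genes at -0.01. In the model of 6 libraries only, 9 Nodal and gastrula genes were up, 4 heart field genes were down and 1 multiciliated cell gene and 1 ionocyte gene were down. Forebrain and eye field genes called down numbered 6 with a pseudocount of 0.1, and 7 with a filter of 5 TPM or with equal library sums. Those of multiciliated cells numbered 3 without a TPM filter, with equal library sums or with a constant variance prior, and those of ionocytes 0 with that prior. The heart field median was -1.34 with a filter of 5 TPM and -0.30 without a filter. *actc1*, which was not called, had a log2 fold change of 0.45, which ran from -0.032 without replicate 1 to 1.08 without Fgf4 replicate 2. Pair orders were compared under median-of-ratios scaling and a pseudocount of 1. The number of up-regulated genes in the order of the *fgf4* ratios stayed within 1.5 times. So did that of down-regulated genes lowest in pair 1, then pair 2, then pair 3. How the other orders held under these settings, among them 1, 2, 3, is not reported here. TPM carry no counts, so the reads behind genes of a few TPM, such as *mixl1* or *mmp1*, are unknown.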

Other observations

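A few of the up-regulated genes outside the lists are known from blood vessel endothelium. They were picked after their values were seen, so they are a description and carry no test as a group. The list of myeloid, blood and endothelial genes used above had 0 of 28 called up, and 0 in every alternative fit run. *esam*, an endothelial adhesion molecule gene, went from 2.47, 1.37 and 0.584 TPM in control replicates 1, 2 and 3 to 11.7, 4.87 and 2.48 TPM in the Fgf4 replicates, 1.67 ± 0.25 on the log2 scale (SE, limma adjusted p = 0.264). It was called in all 9 leave-out fits. The claudin gene *cldn5* went from 1.44 ± 0.416 to 6.39 ± 5.1 TPM, and *mmrn2*, an endothelial matrix protein gene, from 0.852 ± 0.697 to 7.23 ± 8.59 TPM (SD, n = 3 each). *eng*, which encodes the TGF-beta co-receptor endoglin, was at 1.49, 0.309 and 0.212 TPM in control and 12, 0.896 and 1.05 TPM in Fgf4 libraries. *exoc3l1* was under 0.12 TPM in each control library and at 6.93, 1.02 and 1.72 TPM in the Fgf4 libraries, and *aqp1*, a water channel gene, was under 0.10 TPM and at 2.14, 2.33 and 0.796 TPM. Fgf4 replicate 1 was the highest library in *esam*, *cldn5*, *mmrn2*, *eng* and *exoc3l1*. All of them are low in absolute level, and *eng* and *mmrn2* were called in 1 of the 9 leave-out fits, *cldn5* in 2, *aqp1* in 4 and *exoc3l1* in 6. *sox7*, also a gene of endothelium, fell. So did *ets1*, the gene of cardiac neural crest and blood vessels, which was called in all 9 leave-out fits.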
